A study of Oryza sativa with 12 samples.

Results

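Rice (Oryza sativa) cells in suspension culture were examined after 12 h in medium from which sucrose had been left out, the earliest of the times studied. The comparison rests on 3 of the 12 arrays of the study, chosen by their labels and called arrays 1 to 3 here after their replicate numbers. On each array, RNA of cells without sucrose, labelled with Cy5, was hybridised beside RNA of cells kept for the same 12 h with 3% sucrose, labelled with Cy3. Both kinds of cells were in Murashige and Skoog medium, a standard mixture of salts and vitamins for plant culture, and polyadenylated RNA was purified from both. The other 9 arrays enter only as a contrast. They hold 3 arrays after 24 h and 3 after 48 h without sucrose, each against 3% sucrose for as long, and 3 arrays after 12 h without sucrose against 88 mM sorbitol. Sorbitol, a sugar alcohol, stands in the design as a control for osmotic stress. No mutation or transgene is named in the labels, and the sources used here do not give the cultivar. The cells are an undifferentiated culture and stand for no organ of the plant.

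Sucrose is the form in which most plants carry carbon from leaves to other tissues, and cultured rice cells depend on the sugar in their medium. When it runs out, plant cells are known to mobilise starch, to oxidise amino acids and lipids in the mitochondria and peroxisomes, and to slow growth and division. In rice, alpha-amylase genes of the RAmy3 group are a textbook case of genes held down by sugar, and kinases of the SnRK1 type and MYB factors of the MYBS group act in that control.

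Values are log2 ratios, starved cells divided by control cells, so that 1 means 2-fold higher and a negative value means lower. Of 21495 probes, 20089 had a value on all 3 arrays and were tested. The other 1406 had a blank at 12 h and have no test, and none of the 514 of these with 2 values was at least 2-fold higher on both or at least 2-fold lower on both. A probe was called when the mean of the 3 arrays differed from 0 at an adjusted p under 0.05 in limma. The words rose and fell are kept for called probes, and a gene rose or fell when at least 1 of its probes was called. The direction is the likely one: it comes from the dye labels, and the deposited table does not say which channel was divided by which. All arrays had the same dye orientation, so a dye bias of a probe stays in its mean. The labels do not say that the arrays came from separate cultures, so a p-value reflects how far these arrays spread and no more, and that spread may be technical. The number of arrays limits the precision.

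The arrays were unlike in 2 respects that touch the results below. Array 1 had the widest spread over probes, with an SD of 0.90 against 0.65 on array 2 and 0.78 on array 3. Array 3 stood apart: across probes, which are not independent replicates, it correlated with arrays 1 and 2 at 0.345 and 0.280, whereas these correlated with each other at 0.647. It was opposite in sign to both others for 30.1% of tested probes, against 13.2% for array 1 and 16.7% for array 2, and its median was 0.13 where theirs were -0.01. Blanks made up 4.69% of array 1, 5.94% of array 2 and 0.107% of array 3. Seed storage protein genes, markers of endosperm, stayed near 0, with 0 of 5 called and a median of 0.02. Genes of photosynthesis and chlorophyll synthesis are markers of leaf cells. Of 11 such genes 3 rose (2.87% of all genes did), with a median of 0.38 against 0.01 over all genes. Among them PORB, which makes a precursor of chlorophyll, stood at 1.23, 1.25 and 1.26 on arrays 1 to 3. Without array 2 the PORB call ended, and without array 1 as well (adjusted p = 0.177 and 0.0855), though its mean stayed at 1.24 and 1.25. The part of such cells in the results was not tested. In bulk RNA a change in the number of cells of a type and one in the RNA per cell cannot be told apart.

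After 12 h, 887 probes were called (4.42% of those tested), 526 of them higher (2.62%) and 361 lower (1.8%). Counted as genes, 428 of 14902 rose (2.87%) and 310 fell (2.08%). A further 78 higher and 47 lower probes had no gene in the table used here. All 887 had the same sign on the 3 arrays, where 40.0% of all tested probes did. This follows largely from calling probes by the mean of the same arrays, and is no support for the calls. The smallest mean of a called probe was 1.10 upward and -1.12 downward, so that every call was at least 2-fold by its mean, and 160 higher and 83 lower probes were at least 4-fold. Being 2-fold on each of the 3 arrays was rarer, with 343 probes higher (1.71%) and 187 lower (0.931%). Array 1 held the largest ratio of the 3 for 294 of the higher and 212 of the lower probes. The smallest ratio was most often on array 3 for the higher probes (253) and on array 2 for the lower ones (224). The number of calls turned on the arrays. It was 680 without array 1 (408 higher and 272 lower) and 489 without array 2 (259 and 230). Without array 3 it was 2225 (1154 higher and 1071 lower). List counts with an array left out, given below, are to be read beside these. Such a fit holds 2 arrays and estimates the spread anew over all probes, so a call can end while the mean hardly changes. The gene lists were drawn up with earlier results of these data known, so their counts support nothing by themselves.

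The largest mean of any called probe was that of a probe of RAmy3D, a starch-degrading alpha-amylase gene. RAmy3D (LOC4345814) had log2 ratios of 5.89 on array 1, 1.75 on array 2 and 4.48 on array 3. All 3 were far above 0, and array 2 was the low one. The mean was 4.04 ± 2.11 (SD, n = 3), a 16.5-fold rise (limma adjusted p = 0.00632). Without array 2 the mean was 5.19. A second RAmy3D probe read 1.77, 0.60 and -0.46, with a mean of 0.64, and was not called (adjusted p = 0.447). The probes of RAmy3D thus disagreed, whereas both probes of RAmy3E (LOC4345812) were called. They read 3.94, 1.79 and 3.33 (mean 3.02 ± 1.11, adjusted p = 0.0037) and 2.99, 1.62 and 3.89 (mean 2.83 ± 1.14, adjusted p = 0.00474). For both genes array 2 gave the lowest ratio. The probe sequences were not used here, so whether the RAmy3 probes hybridise with each other's transcripts was not tested.

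No other gene of starch breakdown was called, so that 2 of 7 rose and 0 fell, with a median of 0.62 (background 2.87% rising). RAmy3A (LOC4347262) read 0.43, 2.00 and -0.58, and RAmy1A, listed as AMY1A (LOC4330832), read 1.18, 0.41 and -0.18. Their arrays lay on both sides of 0. The glucan, water dikinase relative GWD3, which phosphorylates starch, had a mean of 0.62 and DPE2, a glucanotransferase that acts on maltose, one of -0.16.

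**Figure D1:**
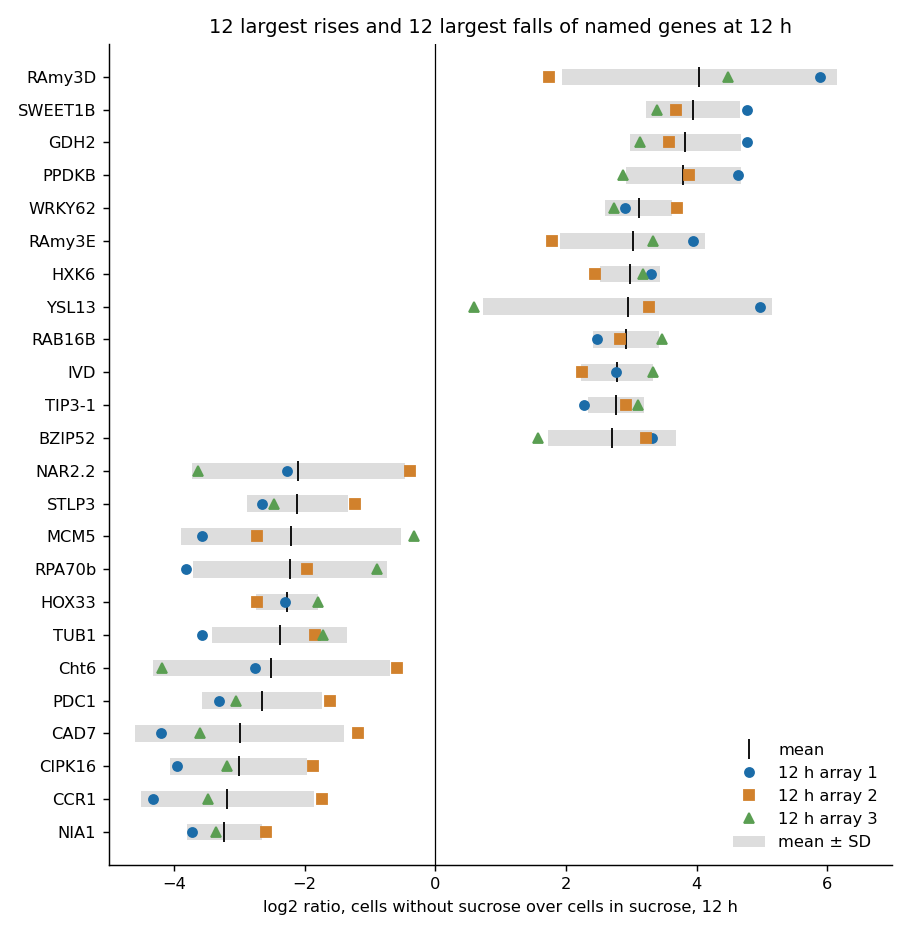
Log2 ratios of cells without sucrose over cells in sucrose at 12 h (horizontal axis) for the 12 largest rises and 12 largest falls among called genes with a name, 1 probe per gene. Coloured symbols are the 3 arrays, the black tick their mean and the grey bar the mean ± SD; RAmy3D runs from 1.75 on array 2 to 5.89 on array 1, and MCM5 from -3.57 on array 1 to -0.33 on array 3.

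Sugar transporters moved in both directions. Of 17 such genes on the array 14 were tested, and 5 rose and 2 fell, with a median of 0.27 (background 2.87% and 2.08%). SWEET1B (LOC4338851), of the SWEET family of sugar uniporters, read 4.77, 3.68 and 3.40 on arrays 1 to 3. Its arrays lay close together, at a mean of 3.95 ± 0.72, a 15.5-fold rise (adjusted p = 0.00124). The hexose carrier gene MST3 read 4.02, 2.24 and 1.74 (mean 2.67 ± 1.20, adjusted p = 0.00697). Here array 1 was well above the other two, and without it the mean was 1.99. The sucrose transporter genes SUT5 (mean 2.49 ± 0.69, adjusted p = 0.00357) and SUT1 (1.86 ± 0.54, adjusted p = 0.00869) and SWEET4 (2.04 ± 0.50, adjusted p = 0.00528) rose too.

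The falls among the transporters were of the same families. SWEET1A (LOC4324848) read -2.29, -0.85 and -2.63 (mean -1.92 ± 0.95, adjusted p = 0.0169), the reverse of SWEET1B, though a second SWEET1A probe stood at -0.37 and was not called. SUT2 read -1.37, -0.98 and -2.61 (mean -1.65 ± 0.85, adjusted p = 0.0271). Array 2 was nearest to 0 for both genes. The SUT1 call ended without array 2 (adjusted p = 0.0715).

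Genes that bring sucrose and hexoses into metabolism were mostly not called. Of 23 tested, 2 rose and 1 fell, with a median of 0.08 (background 2.87% rising and 2.08% falling). The hexokinase gene HXK6 (LOC4338010, for which the symbol HXK7 is listed as well) read 3.31, 2.45 and 3.18, with little spread between arrays. Its mean was 2.98 ± 0.46 (adjusted p = 0.0019). The sucrose synthase genes, whose enzymes cleave sucrose, parted: SUS4 rose, with 1.84, 1.11 and 1.27 (mean 1.41 ± 0.38, adjusted p = 0.0233), and SUS1 (LOC4333062) fell, with -3.02, -1.49 and -1.65 (mean -2.05 ± 0.84, adjusted p = 0.0101). That the SUS4 and SUS1 arrays did not overlap follows from their calls in opposite directions. The SUS4 call ended without array 1 and without array 2 (adjusted p = 0.117 and 0.0828).

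Below hexokinase the glycolytic genes leaned downward on arrays 1 and 2. Of 10 tested, 1 fell and 0 rose (background 2.08% falling). A mean below 0 was found for 9 of the 10 genes, with a median of -0.68. Their median was -1.36 on array 1, -0.44 on array 2 and -0.16 on array 3. GAPC2 (LOC4336216), a cytosolic glyceraldehyde-3-phosphate dehydrogenase, read -2.55, -1.36 and -1.84 and fell on every array (mean -1.92 ± 0.59, adjusted p = 0.00851). The enolase gene Eno1 (-1.12, adjusted p = 0.0757) and the pyruvate kinase gene OsPK1 (-1.33, adjusted p = 0.0632) were not called. Without array 3, 4 glycolytic genes were called lower, while lower calls over all probes went from 361 to 1071.

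PPDKB (LOC4338750), encoding pyruvate, phosphate dikinase, which turns pyruvate back into phosphoenolpyruvate, read 4.63, 3.89 and 2.87. Every array was at least 2.87, and the mean was 3.80 ± 0.88, a 13.9-fold rise (adjusted p = 0.0017). Fermentation genes, whose enzymes make ethanol from pyruvate, went the other way: 2 of 3 fell (background 2.08% falling). The pyruvate decarboxylase gene PDC1 (LOC4339066) read -3.31, -1.61 and -3.06 (mean -2.66 ± 0.92, adjusted p = 0.004), and the alcohol dehydrogenase gene Adh2 had a mean of -1.56 ± 0.67 (adjusted p = 0.0239). PDC2 was at -1.03 and was not called (adjusted p = 0.138). The Adh2 call ended without array 1 and without array 2 (adjusted p = 0.117 and 0.0809). None of 5 genes of the tricarboxylic acid cycle was called, at a median of -0.17.

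Breakdown of amino acids was the list with the largest share of rises among those described here: 6 of 8 tested genes rose and 0 fell, with a median of 1.46 against 0.01 over all genes (background 2.87%). All 8 had a mean above 0. Its members were chosen with earlier results of these data known, so this rank supports nothing by itself. The list medians were 1.86, 0.81 and 1.52 on arrays 1 to 3. GDH2 (LOC4336554), a glutamate dehydrogenase that releases ammonium from glutamate, read 4.77, 3.58 and 3.13 (mean 3.83 ± 0.85, a 14.2-fold rise, adjusted p = 0.0017). Its second probe gave a smaller rise, with 1.76, 1.25 and 1.32 (mean 1.44 ± 0.28, adjusted p = 0.018).

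Members of the list that act on leucine or carry electrons from such steps were called as follows. IVD (LOC4337676), isovaleryl-CoA dehydrogenase, read 2.77, 2.24 and 3.34 (mean 2.78 ± 0.55, adjusted p = 0.00231), with no array far from the others. MCCA, the biotin-bearing subunit of methylcrotonyl-CoA carboxylase, which takes a later step, read 2.38, 3.06 and 1.68 (mean 2.37 ± 0.69, adjusted p = 0.00413), while its second probe was at 1.05 and was not called (adjusted p = 0.181). The electron transfer flavoprotein, which accepts electrons from such dehydrogenases in mitochondria, has subunits encoded by ETFA (1.60 ± 0.43, adjusted p = 0.0139) and ETFB (1.20 ± 0.46, adjusted p = 0.0472). A second ETFA probe was at 0.64 and was not called (adjusted p = 0.314), and over the mean of both probes the ETFA call ended (0.0573). D2HGDH, D-2-hydroxyglutarate dehydrogenase, known in Arabidopsis to feed the same flavoprotein, read 3.18, 0.91 and 2.20 (mean 2.10 ± 1.14, adjusted p = 0.0174).

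ETF-QO, the oxidoreductase that passes electrons from the flavoprotein to ubiquinone, lay outside the list and was singled out after its values were seen. It had a mean of 1.60 ± 0.37 and rose (adjusted p = 0.013). GDH1 (1.12, adjusted p = 0.0645) and ALDH5F1, succinate semialdehyde dehydrogenase (0.16), were not called. The ETFB call ended without any 1 array (adjusted p = 0.146, 0.104 and 0.0518 without arrays 1, 2 and 3), and that of the second GDH2 probe without array 1 and without array 2 (0.0713 and 0.0841).

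By the glyoxylate cycle acetyl units from fat become sugar precursors. In lipid use and this cycle 1 of 6 genes rose, with a median of 0.73 (background 2.87% rising). ICL, isocitrate lyase of that cycle, read 2.23, 2.64 and 0.83 (mean 1.90 ± 0.95, adjusted p = 0.0179), with array 3 the low one. The ICL call ended without array 2 (adjusted p = 0.121). None of 5 genes of autophagy and vacuolar proteolysis was called. ATG8C, a ubiquitin-like protein of the autophagosome membrane, was at 1.03, 0.60 and 1.27, a mean of 0.96 ± 0.34 (adjusted p = 0.089).

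Nitrate use held one of the largest falls of the comparison. NIA1 (LOC4345795), encoding nitrate reductase, read -3.73, -2.60 and -3.36. It was low on every array, with a mean of -3.23 ± 0.58, or 0.107 of the control (adjusted p = 0.0017). NAR2.2, a partner protein of high-affinity nitrate transporters, read -2.27, -0.39 and -3.63. Array 2 was near 0, and the mean of -2.10 ± 1.63 was called (adjusted p = 0.0443), but not without array 3 (adjusted p = 0.0542). Of 11 alternative fits, which include centring, scaling and leaving out an array, 4 called NAR2.2. The wider list of nitrogen assimilation and transport holds NIA1 but not NAR2.2. In it 1 of 12 genes fell and 0 rose, at a median of -0.17 (background 2.08% falling). The ammonium transporter gene AMT1 stood at -0.81, -0.48 and -0.92 and was not called (adjusted p = 0.176), and its second probe was at 0.12.

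**Figure D2:**
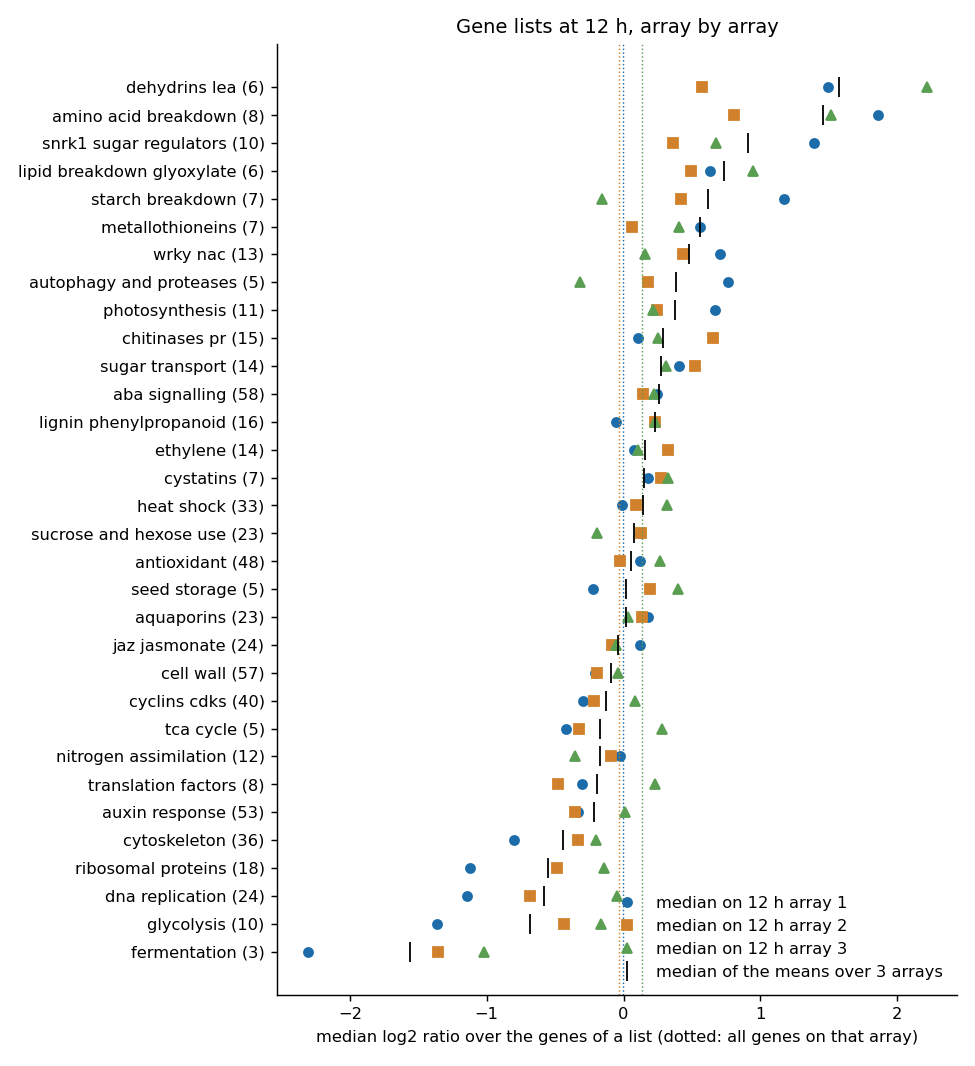
Median log2 ratio of each gene list on each of the 3 arrays at 12 h (horizontal axis), with the number of tested genes in brackets; the black tick is the median of the genes' means and the dotted lines are the medians of all genes on each array (-0.01, -0.03 and 0.14). DNA replication is at -1.14, -0.68 and -0.05 on arrays 1 to 3, and amino acid breakdown at 1.86, 0.81 and 1.52.

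Regulators of the sugar response were called upward in 4 of 10 cases and downward in 0, with a median of 0.91 (background 2.87% rising). The count was 2 without array 2. OSK3 (LOC4332495), a kinase of the SnRK1 type, read 2.14, 1.66 and 2.10 (mean 1.97 ± 0.27, adjusted p = 0.00461), with the arrays close together. OSK24, of the same type, had a mean of 1.40 ± 0.58 (adjusted p = 0.0321). MYBS1, a MYB factor known to bind the sugar response element of RAmy3D, read 1.48, 2.02 and 1.26 (mean 1.59 ± 0.39, adjusted p = 0.0138). TPP2, a trehalose-6-phosphate phosphatase, read 1.84, 1.01 and 1.98 (mean 1.61 ± 0.52, adjusted p = 0.0161).

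Other members of these families were not called. OSK1 was at -0.19. MYBS3, a repressor counterpart of MYBS1, was at 0.18 on one probe and -0.49 on the other (adjusted p = 0.798 and 0.413). The MYBS1 call ended without array 2 (adjusted p = 0.13), and the OSK24 call without array 1 and without array 2 (0.209 and 0.104).

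Among other transcription factors, WRKY62 (LOC4347070) read 2.90, 3.70 and 2.74, all high (mean 3.12 ± 0.52, an 8.67-fold rise, adjusted p = 0.0017). In the list of WRKY and NAC factors 3 of 13 rose and 0 fell, with a median of 0.48 (background 2.87% rising). The bZIP factor gene BZIP52 had a mean of 2.70 ± 0.99 (adjusted p = 0.00413). HOX33 (LOC4352777), a homeodomain leucine-zipper factor, read -2.30, -2.74 and -1.79 (mean -2.28 ± 0.47, adjusted p = 0.00358), and its second probe was at -1.51 (adjusted p = 0.0503). Without array 2 the WRKY and NAC count was 1, and without array 3 it was 7. Higher calls over all probes were 526 with all arrays, 259 without array 2 and 1154 without array 3.

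Genes of dehydration and abscisic acid followed. Dehydrin and late embryogenesis abundant genes protect proteins and membranes in drying tissue. Of 6 such genes 3 rose and 0 fell, with a median of 1.57 (background 2.87% rising). RAB16B (LOC4350453) read 2.48, 2.82 and 3.47 (mean 2.92 ± 0.50, a 7.58-fold rise, adjusted p = 0.0019). Its close relatives RAB16C and RAB16D were at -0.13 and 0.19 and were not called. Emp1 read 3.05, 0.64 and 2.91 (mean 2.20 ± 1.35, adjusted p = 0.0217), with array 2 nearest to 0. The Emp1 call ended with the 9 sucrose arrays or all 12 arrays in the fit (adjusted p = 0.126 and 0.0553). The gene rab25 read 0.74, 1.85 and 2.97 (mean 1.85 ± 1.12, adjusted p = 0.0286), a call that ended without array 2 (adjusted p = 0.0884).

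In abscisic acid signalling 1 of 58 genes rose and 1 fell, both counts below the background of 2.87% and 2.08%. SAPK6, a kinase of the SnRK2 type, read 2.25, 1.36 and 2.32 (mean 1.98 ± 0.54, adjusted p = 0.00675). ABA8OX1, whose enzyme breaks down abscisic acid, read -2.34, -1.40 and -0.72 (mean -1.49 ± 0.81, adjusted p = 0.0387). It was below 0 on every array, but the call ended without array 1 and without array 2 (adjusted p = 0.213 and 0.133). Of 23 aquaporin genes 2 rose and 1 fell (background 2.87% and 2.08%). The vacuolar aquaporins TIP3-1 (mean 2.77 ± 0.43, adjusted p = 0.00203) and TIP2-2 (2.40 ± 1.73, adjusted p = 0.0314) were higher, and PIP2-1 of the plasma membrane was lower on both of its probes, at -1.31 ± 0.09 (adjusted p = 0.0244) and -1.19 ± 0.14 (adjusted p = 0.0365). Both PIP2-1 calls ended without array 1 and without array 2, with adjusted p up to 0.181.

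Genes of DNA replication were followed array by array. Of 24 genes of DNA replication 3 fell and 0 rose, with 20 means below 0 and a median of -0.58 (background 2.08% falling). Their medians were -1.14, -0.68 and -0.05 on arrays 1 to 3, where all genes stood at -0.01, -0.03 and 0.14. On array 1, 14 of the 24 were at least 2-fold lower, on array 2 there were 6 and on array 3 there were 3. MCM5 (LOC4331016), a subunit of the replicative helicase, read -3.57, -2.73 and -0.33 (mean -2.21 ± 1.68, adjusted p = 0.0399). RPA70b (LOC4332052), the large subunit of the single-strand binding protein RPA, read -3.82, -1.96 and -0.90 (mean -2.23 ± 1.48, adjusted p = 0.0271). For both, array 3 was the one nearest to 0.

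The count of replication genes that fell was 3 with all arrays, 2 without array 1, 1 without array 2 and 10 without array 3. It was 0 after each array was centred on its median. Lower calls over all probes were 361 with all arrays, 272, 230 and 1071 without arrays 1, 2 and 3, and 229 after centring. MCM3 had a mean of -1.57 ± 1.02 (adjusted p = 0.0458), with calls that ended without array 1 and without array 2 (0.166 and 0.189), and the MCM5 call ended without array 2 (0.136). Of 11 alternative fits, 3 called MCM3 and 4 called MCM5. PCNA, the sliding clamp of DNA polymerase, was at -1.05 and was not called (adjusted p = 0.0706). Array 3 also stood nearest to 0 for MCM5 at the later times, with -3.15, -3.85 and -0.28 on the 24 h arrays and -3.97, -4.45 and -0.12 on the 48 h arrays. The list median on the arrays numbered 3 was -0.08 at 24 h and -0.36 at 48 h, against -0.59 and -1.03 on the others at 24 h and -0.76 and -1.35 at 48 h. What sets these arrays apart was not tested.

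Of 40 cyclins, their kinases and inhibitors 2 fell and 0 rose, at a median of -0.13, a count near the background of 2.08% falling and 2.87% rising. CYCD3-2, a D-type cyclin of the entry into division, read -2.47, -1.53 and -1.44 (mean -1.81 ± 0.57, adjusted p = 0.0101). KRP5, which encodes an inhibitor of the cyclin-dependent kinases and so acts against division, fell as well, with -2.50, -1.34 and -1.95 (mean -1.93 ± 0.58, adjusted p = 0.00797). The mitotic cyclin genes CYCB1-1 (-1.94 ± 1.55, adjusted p = 0.0524) and CYCB2-2 (-1.94 ± 1.65, adjusted p = 0.0596) had means as low but were not called. On array 1 they were at -3.73 and -3.82, and on the other two between -0.78 and -1.20. Without array 3, 8 of the 40 were called lower and 1 higher. Over all probes that fit called 1071 lower and 1154 higher, against 361 and 526 with all arrays.

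Tubulins, kinesins and other genes of the cytoskeleton had 2 falls among 36, with a median of -0.45 (background 2.08% falling). The count was 1 without array 1 or without array 2 and 6 without array 3. Lower calls over all probes were 361, and 272, 230 and 1071 without arrays 1, 2 and 3. The beta-tubulin gene TUB1 (LOC4326917) read -3.57, -1.84 and -1.73 (mean -2.38 ± 1.03, adjusted p = 0.00797), while its second probe was at -0.56 and was not called (adjusted p = 0.382). Of 18 ribosomal protein genes 2 fell and 0 rose (background 2.08% falling), with 16 means below 0 and a median of -0.55. Their medians on arrays 1 to 3 were -1.12, -0.49 and -0.14. RPS10-1 had a mean of -1.47 ± 0.36 (adjusted p = 0.0187) and RPS10 one of -1.26 ± 0.42 (adjusted p = 0.039), and neither was called without array 1 or without array 2 (adjusted p up to 0.244).

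Auxin response genes gave 7 falls and 0 rises among 53, with a median of -0.22 (background 2.08% falling and 2.87% rising). IAA13, a repressor of auxin-induced transcription, read -2.47, -1.27 and -1.98 (mean -1.90 ± 0.60, adjusted p = 0.00879). IAA30, of the same family, read -2.29, -2.14 and -0.77 (mean -1.73 ± 0.84, adjusted p = 0.0209). The other falls were those of IAA9, IAA12 and the auxin response factor genes ARF2, ARF3 and ARF15, with means from -1.20 to -1.40. The number that fell was 3 without array 1, 1 without array 2 and 11 without array 3. Over all probes the lower calls were 361, and 272, 230 and 1071 without arrays 1, 2 and 3.

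Genes of lignin synthesis held some of the deepest falls. Of 16 tested, 2 fell (background 2.08% falling), and the median of the list was 0.23. CCR1 (LOC4331085), cinnamoyl-CoA reductase, the first committed step toward lignin monomers, read -4.33, -1.74 and -3.49 (mean -3.19 ± 1.32, or 0.11 of the control, adjusted p = 0.00413). CAD7 (LOC4336968), a cinnamyl alcohol dehydrogenase that takes the last step, read -4.20, -1.18 and -3.60 (mean -2.99 ± 1.60, adjusted p = 0.00936). Array 2 was nearest to 0 for both. In the cell wall list 1 of 57 genes rose and 1 fell, below the background. EXPL1, an expansin-like gene, read 1.80, 2.01 and 1.44 (mean 1.75 ± 0.29, adjusted p = 0.00797), and the beta-expansin gene EXPB6, whose protein loosens walls, read -2.73, -0.33 and -2.28 (mean -1.78 ± 1.28, adjusted p = 0.0443). The EXPL1 call ended without array 2 (0.0647) and the EXPB6 call without array 1 and without array 3 (0.0629 and 0.0528). Of 11 alternative fits, 4 called EXPB6.

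Defence genes were split. Of 15 chitinases and pathogenesis-related genes 2 rose and 1 fell, with a median of 0.29. Cht1 read 2.52, 0.65 and 1.99 (mean 1.72 ± 0.96, adjusted p = 0.0282) and chia4a had a mean of 1.25 ± 0.56 (adjusted p = 0.0466). Cht6 read -2.77, -0.59 and -4.19 (mean -2.51 ± 1.81, adjusted p = 0.0301). That the Cht1 and Cht6 arrays did not overlap follows from their calls in opposite directions. After each array was centred on its median, or with the 9 sucrose arrays in the fit, 0 genes of this list rose and 0 fell. Over all probes those fits called 355 and 371 higher and 229 and 262 lower. The Cht1 call ended without array 1 (0.0571) and the chia4a call without array 2 (0.37). Of 11 alternative fits, 4 called chia4a. Heat shock (33 genes), ethylene (14) and cystatin (7) lists had 0 calls, with medians of 0.14, 0.16 and 0.15, as did translation factors (8 genes), at -0.19. Of 48 antioxidant genes 2 rose and 1 fell (median 0.06), of 24 jasmonate genes 1 rose (median -0.04) and of 7 metallothionein genes 1 rose (median 0.56). With a background of 2.87% rising and 2.08% falling, the antioxidant and jasmonate counts were near that of all genes.

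Other members of the 12 largest changes belong to none of the lists above. YSL13, of the yellow stripe-like family of metal chelate transporters, read 4.97, 3.27 and 0.59 (mean 2.94 ± 2.21, adjusted p = 0.0296), a call that ended without array 2 (adjusted p = 0.0642). Of 11 alternative fits, 6 called YSL13. CIPK16 (LOC4347071), a kinase of the calcium-sensor network, read -3.96, -1.88 and -3.19 (mean -3.01 ± 1.05, adjusted p = 0.00338). STLP3 read -2.66, -1.23 and -2.46 (mean -2.12 ± 0.77, adjusted p = 0.00775). Genes with a locus number only had changes of similar or larger size. LOC4347408 read -5.72, -2.55 and -4.47 (mean -4.25 ± 1.60, adjusted p = 0.00243), the deepest mean of any tested gene, and LOC4336716 read 4.60, 4.73 and 1.99 (mean 3.77 ± 1.54, adjusted p = 0.00338).

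Neighbours were protein-coding genes next to each other in the RefSeq gene table ordered by chromosome and start position, with no limit on distance. Of 8216 pairs of neighbouring genes that were both tested, 42 had both members called. In 21 pairs both were higher, in 6 both were lower and in 15 the members went opposite ways. Over all genes 2.87% rose and 2.08% fell. How many pairs these shares alone would give was not worked out, so whether position played a part was not tested. RAmy3E and RAmy3D were neighbours that rose together, whereas WRKY62 rose and its neighbour CIPK16 fell. SWEET1B rose beside LOC4338850, and MT1B, a metallothionein gene, beside LOC4332488.

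Several probes to a gene gave a check within the array. Of 1674 genes with more than 1 tested probe, 97 had a called probe. In 20 of the 97 all probes were called the same way, in 77 at least 1 probe was not called, and in 0 were probes called opposite ways. In 15 a called probe stood beside one with a mean of the opposite sign. The 85 called genes with exactly 2 probes had a median difference of 0.91 between the probes, and in 41 of them the difference was over 1, as for RAmy3D, GDH2 and TUB1. A size of change given here is therefore that of a probe.

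The later arrays, which share none with the 12 h set, show whether the probes called early kept their direction. They had the same dye orientation, so a dye bias of a probe would recur in them. Of the 526 probes higher at 12 h, 497 (94.5%) were above 0 on all 3 arrays at 24 h, where 21.0% of all tested probes were. At 48 h it was 464 of the 520 with 3 values (89.2%), against 27.3% of all. The medians of their means were 1.68 at 12 h, 1.77 at 24 h and 1.92 at 48 h. Of the 361 lower probes, 325 (90.0%) were below 0 on all 3 arrays at 24 h and 328 of 354 (92.7%) at 48 h, against 20.7% and 26.2% of all, with medians of -1.63, -1.47 and -1.80. Among the higher probes 2 were below 0 on all 3 arrays at 48 h, and none at 24 h.

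The times were compared with each other probe by probe. For 24 h minus 12 h limma called 0 of 19984 probes (0%), with 338 at an unadjusted p under 0.05 and a lowest adjusted p of 0.999. For 48 h minus 12 h it called 0 of 18348 (0%), with 1077 at an unadjusted p under 0.05 and a lowest adjusted p of 0.395. It called 1 probe for 48 h minus 12 h with all 12 arrays in the fit, after quantile normalization or without 48 h array 1. A miss in this test does not show that the times were alike. OSK3 went from 2.14, 1.66 and 2.10 at 12 h to 0.66, 0.56 and 2.06 at 24 h and 0.89, 0.76 and -0.09 at 48 h. The 48 h minus 12 h difference of OSK3 was -1.45 (SE 0.38, adjusted p = 0.76) and was not called. RAB16B moved the other way, from 2.92 ± 0.50 at 12 h to 4.36, 4.93 and 4.90 at 48 h, a difference of 1.81 (SE 0.38, adjusted p = 0.582). MT1B read 2.75, 1.08 and 1.19 at 12 h (adjusted p = 0.0301, or 0.154 without array 1) and 3.47, 6.71 and 4.27 at 48 h.

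**Figure D3:**
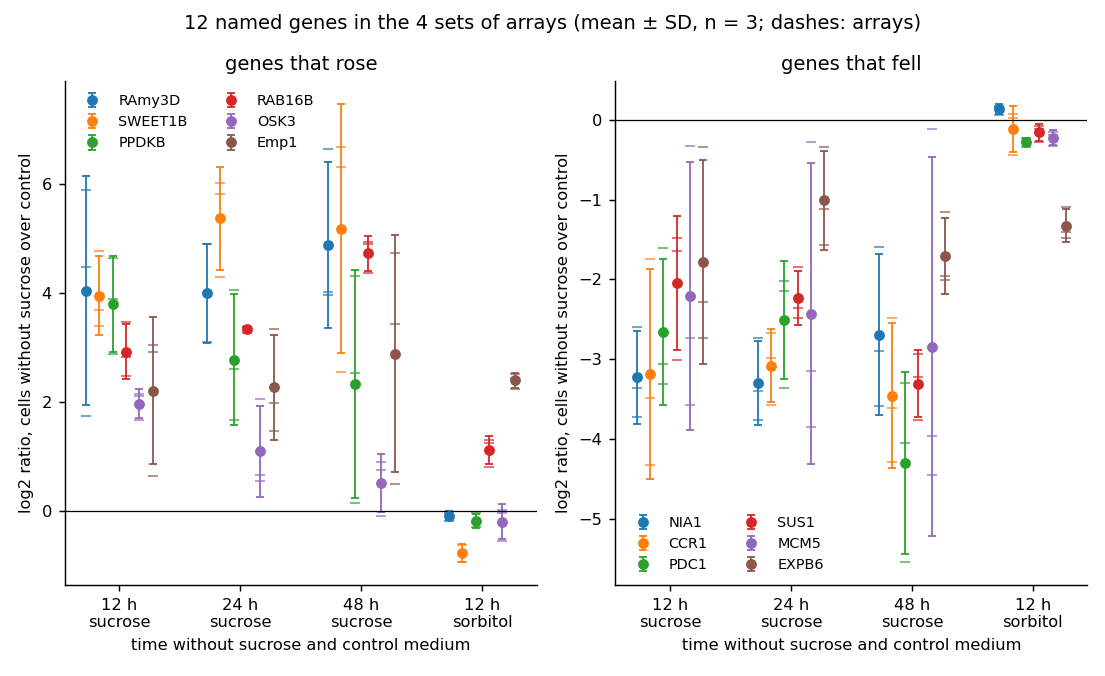
Log2 ratios of starved over control cells for 6 genes that rose (left) and 6 that fell (right) at 12 h, in the 4 sets of 3 arrays named on the horizontal axis by time and control medium. Circles and bars are means ± SD (n = 3) and dashes single arrays; SWEET1B is at 3.95, 5.37 and 5.18 against sucrose and at -0.78 against sorbitol, and Emp1 at 2.20 and 2.40 against the 2 media at 12 h.

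Against sorbitol, the design asks which 12 h changes remain when the control cells have an osmolyte in place of sucrose. The sign of those ratios rests on the dye labels alone, and the sorbitol arrays spread less, with SDs over probes of 0.30, 0.34 and 0.38. Of the 526 higher probes, 359 were within 0.5 of 0 in their mean against sorbitol, and of the 361 lower ones 316. The medians of their means were 0.12 and -0.10. Still, 270 of the higher probes (51.3%) were above 0 on all 3 sorbitol arrays, where 31.7% of all tested probes were, and 171 of the lower (47.4%) were below 0, against 31.5%. At least 2-fold the same way by the mean were 28 higher and 3 lower probes, and 9 higher probes were at least 2-fold the opposite way. The shares of all tested probes within 0.5 of 0 or at least 2-fold against sorbitol were not counted. With SDs this small, nearness to 0 cannot be read as particular to the called probes.

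The difference between both 12 h sets compares the control media, as sorbitol over sucrose, if the starved cells of the sets were alike. Limma called 893 of 20078 probes (4.45%). The fit shares 1 spread per probe between the sets, although the sorbitol arrays spread less, so its adjusted p-values may be too small. The count changed with the arrays in the fit: it was 36, 29 and 1 without sorbitol arrays 1, 2 and 3, and 815, 1828 and 3116 without 12 h sucrose arrays 1, 2 and 3. The difference uses the arrays that called the 12 h probes, so those probes' calls in it are no separate evidence. Of 54 probes named here that were called in it, 7, 7 and 0 stayed called without sorbitol arrays 1, 2 and 3. SWEET1B read -0.62, -0.95 and -0.76 against sorbitol, below 0 where it was far above 0 against sucrose, and the difference was 4.72 (SE 0.36, adjusted p = 0.00309). RAmy3D read -0.02, -0.19 and -0.06 (difference 4.13, SE 0.87, adjusted p = 0.0378), and PPDKB -0.04, -0.22 and -0.30 (difference 3.99, SE 0.41, adjusted p = 0.00483). The groups of 3 did not overlap for these genes, but that was a condition for naming genes by this difference and is no support. Without sorbitol array 3 none of these calls held (adjusted p = 0.0508 for SWEET1B, 0.176 for RAmy3D and 0.0586 for PPDKB), and RAmy3D was also not called without sorbitol array 1 (0.14), sorbitol array 2 (0.15) or sucrose array 1 (0.064). The SWEET1B difference itself hardly moved, at 4.80, 4.64 and 4.73 without sorbitol arrays 1, 2 and 3.

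Falls against sucrose were compared with sorbitol in the same way. NIA1 read 0.18, 0.17 and 0.06 against sorbitol (difference -3.37, SE 0.30, adjusted p = 0.0038), CCR1 0.08, 0.02 and -0.44 (difference -3.07, SE 0.58, adjusted p = 0.0268) and CIPK16 -0.31, 0.04 and -0.11 (difference -2.88, SE 0.47, adjusted p = 0.0181). All were near 0 there. ABA8OX1 changed sign, with 0.86, 0.97 and 1.10 against sorbitol and a difference of -2.46 (SE 0.38, adjusted p = 0.0154). VIT1.2, of a family of vacuolar iron transporters, did so in the other direction. It read 3.93, 1.89 and 1.32 against sucrose (adjusted p = 0.0163) and -0.60, -1.05 and -1.14 against sorbitol (difference 3.31, SE 0.60, adjusted p = 0.023). Without sorbitol array 3 the adjusted p was 0.0533 for NIA1, 0.132 for CCR1, 0.121 for CIPK16, 0.118 for ABA8OX1 and 0.143 for VIT1.2. Without sorbitol array 1 or 2 the NIA1 call held and the other 4 did not.

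**Figure D4:**
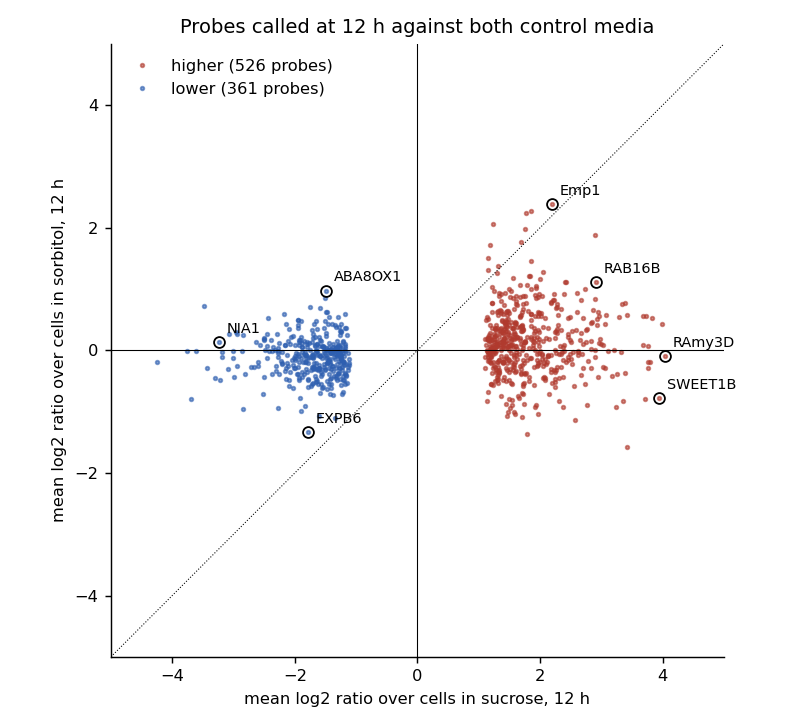
Mean log2 ratio against sorbitol (vertical axis) by mean log2 ratio against sucrose (horizontal axis) at 12 h for the 526 higher and 361 lower probes called against sucrose; the dotted line marks equal ratios. Most points lie near 0 on the vertical axis, while Emp1 (2.20 and 2.40) and EXPB6 (-1.78 and -1.32) lie near the line.

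Some dehydration genes were high against both media. Emp1 read 2.51, 2.45 and 2.24 against sorbitol, as high as the 3.05, 0.64 and 2.91 against sucrose, and the difference of -0.19 (SE 0.58) was not called (adjusted p = 0.884). RAB16B read 1.24, 1.30 and 0.81 against sorbitol, lower on every array than against sucrose, and its difference of 1.81 (SE 0.30) was called (adjusted p = 0.019). The photosystem gene PSAH (1.21 against sorbitol and 1.83 against sucrose) and the calmodulin-like gene CML31 (1.38 and 1.32) were among the other named genes at least 2-fold higher on both, and neither difference was called (adjusted p = 0.136 and 0.91). The expansin gene EXPB6 read -1.09, -1.48 and -1.40 against sorbitol and was the named gene at least 2-fold lower on both (difference -0.46, SE 0.55, adjusted p = 0.69, or 0.0385 without sucrose array 2). ETF-QO was at -1.03 ± 0.20 against sorbitol and 1.60 ± 0.37 against sucrose, with a called difference of 2.63 (SE 0.26, adjusted p = 0.00421). The called differences of RAB16B and ETF-QO ended without sorbitol array 3 (adjusted p = 0.133 and 0.0586), and that of RAB16B also without sorbitol array 1 or 2 (0.101 and 0.105). CML31, PSAH and EXPB6 were named in this contrast after their values against sorbitol were seen.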

How the data were processed

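The values are those of the table the authors deposited, with 1 column per array. The scale was read as a natural log ratio of both channels: in 2 columns the minimum equals the natural log of 0.01, and on 12 h array 1 this scale turned 316 values into ratios of 1 decimal (tolerance 1e-05), against 79 for a log2 and 83 for a log10 scale. On 12 h array 3 such values were 6, 7 and 5, so its scale was taken from the other columns. The deposited natural log values were turned to log2. Their centring, background correction and normalization are unknown, the sources used here do not give the software, and without scanner intensities, not used here, the signal over background is unknown. Median log2 values were -0.01, -0.01 and 0.11 on the 12 h arrays over all their probes, -0.03 to 0.03 on the 24 h and 48 h arrays and within 0.01 of 0 on the sorbitol arrays. Direction is Cy5 over Cy3, per the labels.

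Probes were named through GEO's platform annotation: 17839 of 21495 had 1 gene, 21 several and 3635 none. All gene IDs (100%) were found in the RefSeq table of assembly ASM3414082v1. No sequence was used, and coordinates served only to order neighbouring genes.

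The model was limma's (lmFit and eBayes, version 3.58.1, under R 4.3.3) on the log2 ratios of the 3 arrays, two-sided against 0, with Benjamini-Hochberg adjustment over 20089 probes and a threshold of 0.05. Differences between sets used the 6 arrays concerned. The fit was tested on simulated data. Summaries used pandas 2.3.3 and numpy 2.4.6 under Python 3.11.15, and plots matplotlib 3.10.9. Alternatives were other sets of arrays in the fit, probes with 2 values, centring, scaling, quantile normalization, means over a gene's probes, robust moderation, a replicate block and leaving out each array.

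Genes were named by a rule: the 12 largest rises and falls among called probes with a gene name, from each of 32 gene lists made by symbol the 2 largest means and the members needed for its count, the 4 largest called differences each way, and a panel of 18 genes, of which 16 matched. A list counts genes, and its median is over gene means. Members and lists were chosen with earlier results of these data known, and support nothing by themselves.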

Additional observations from a re-analysis of the deposited data

How the results depend on the processing

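The 887 calls at 12 h became 1740 with all 12 arrays in 1 fit (978 higher and 762 lower) and 584 (355 and 229) after centring each array on its median, and with 1 array left out they ran from 489 to 2225. Within 1.5 times of 887 were the counts with the 9 sucrose arrays (633), with probes of at least 2 values (736), scaled (667), quantile normalized (940), over gene means (815) and with robust moderation (825). For 24 h minus 12 h the count was 0 in every alternative, leaving out any single array included (0 to 0). For 48 h minus 12 h it was 1 with all 12 arrays and 1 after quantile normalization, and 0 to 1 with 1 array left out. The 893 calls of sorbitol over sucrose became 321 with all 12 arrays, 2173 when scaled and 2561 after quantile normalization. Leaving out 1 array took them from 1 (without sorbitol array 3) to 3116 (without 12 h array 3); a set of 2 arrays was left in each such case, and the cause was not tested.

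Of the 110 named probes 80 were called, 33 of them in all 11 alternatives and 44 without each single array. Means changed sign in 3 cases, none of them a called probe: MYBS3 (-0.16 as a mean over its probes), VPE1 (from -0.077 without array 1 to 0.80 without array 3) and RAmy3A (from -0.075 without array 2 to 1.21 without array 3). Of 352 list counts under the alternatives 279 were within 1.5 times of the value given and 73 were not.

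Replicate numbers did not pair the arrays: the deviations of same-numbered arrays from their group means correlated at -0.18, -0.03 and 0.42 with the 24 h set, -0.08, -0.12 and 0.46 with the 48 h set and -0.05, -0.01 and 0.02 with the sorbitol set. With the number as a block the count stayed 0 for 24 h minus 12 h and 0 for 48 h minus 12 h, and was 913 for sorbitol over sucrose. Not every array correlated best with its own number: 12 h array 1 did so with the arrays numbered 2 at 24 h and 48 h (0.376 and 0.362), 12 h array 2 with those numbered 1 (0.505 and 0.334) and 12 h array 3 with those numbered 3. The labels do not pair the arrays this way, and no fit with crossed numbers was made.

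Depth is unknown, since no intensities were used. With 3 arrays to a set, 1 of which stands apart, a probe that was not called is not shown to be unchanged.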
